A study of Mus musculus with 6 samples.

Results

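Cytochrome P450 family 2 is the largest P450 family of the mouse, and its members were read here in fetal livers labelled HNF4 control and HNF4 null. Members were the probe sets whose only gene symbol in the platform annotation is Cyp2 followed by a subfamily letter from a to w and a number. This gave 42 of the 45037 probe sets tested, and they stand for 35 of 18193 genes in 11 subfamilies. The reference gene table lists 47 protein-coding Cyp2 genes of this form, of which 34 had such a probe set, and the other measured member, Cyp2d13, is listed there as a transcribed pseudogene.

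Whole livers taken at embryonic day E18.5 were profiled, 1 per Affymetrix array. The 3 control livers carry Hnf4LoxP/+ with the AlfpCre transgene, that is 1 loxP-flanked and 1 unflanked allele, and are called Control_8, Control_1192 and Control_1193. The 3 null livers carry HNF4LoxP/LoxP with AlfpCre and are called Null_61, Null_1191 and Null_1195. All 6 livers therefore carry Cre, which albumin and alpha-fetoprotein regulatory elements drive in cells of the hepatocyte lineage. In the controls Cre can act on the flanked allele too, so that their hepatocytes may keep only 1 intact Hnf4a allele. The blood-forming, endothelial and mesenchymal cells of the organ are in every sample. The titles carry different numbers, nothing says whether litters were shared, and p values therefore reflect only how far these arrays spread, which may be technical.

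P450 enzymes are heme proteins of the endoplasmic reticulum that insert an oxygen atom into small lipophilic molecules, with electrons passed on by P450 reductase and cytochrome b5. Family 2 enzymes act on drugs, solvents, steroids, bile acids and arachidonic acid. Most genes of the family arose by repeated duplication and lie side by side in clusters, and many are strongly expressed in hepatocytes and rise after birth. HNF4 alpha, which Hnf4a encodes, belongs to the nuclear receptors and binds DNA as a homodimer at direct repeats which often hold the letters CAAAG followed by a CA.

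Values are deposited probe-set intensities on a linear scale, and those written with ± are means and SD over n = 3 arrays. Log2 changes are null minus control after values below 0 were set to 0 and 32 was added, which understates the change of dim genes. Adjusted p values come from limma with Benjamini-Hochberg adjustment over 45037 probe sets, and a change is called at an adjusted p under 0.05. For a gene with several probe sets the brightest one, by its log2 mean across 6 arrays, stands for it. The highest array median of all probe sets was 99.5, and a fold is given only where both group means lie above it. Folds are the log2 change turned back to a linear scale, with the 32 included, and so differ from the ratio of the group means. Array medians ran from 91.8 to 99.5, and between 0.908% and 1.34% of values on an array lay below 0. Control_8 and Null_61 stood apart from the other 4 arrays in the 5' control probe set for 18S ribosomal RNA, at 42.1 and 33.5 against 449 to 616. They also carry title numbers of another run, which the labels do not call a batch.

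Hnf4a, the targeted gene, was checked first. Its standing probe set (1427001_s_at) read 2607, 2817 and 2877 in control livers against 1778, 1562 and 2778 in null livers. Null_1195 lay inside the control range, and the log2 change of -0.48 (standard error 0.19) was not called (adjusted p = 0.194). Without Null_1195 it was -0.72 and was called (adjusted p = 0.00589). Over the 4 Hnf4a probe sets the null mean was 62.2% to 73.7% of the control mean, and 2 of them were called lower. The null label is therefore only partly borne out by Hnf4a signal, and the position of the probe sets against the deleted part was not analysed here.

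A large group of family 2 genes fell in the null livers, several of them to the background of the array, and the rest were not called. Of 35 Cyp2 genes 14 were lower and 0 were higher by limma, beside 7.85% and 1.56% of all 18193 genes. By an unadjusted p under 0.05, 17 were lower and 3 higher, beside 2760 and 1656 of all 18193 genes. The median log2 change of the 35 genes was -0.41, beside 0.01 over all genes. In 18 genes all 3 nulls lay below all 3 controls and in 3 all lay above, where 17.9% and 13.2% of all genes did so. Counted by probe set, 16 of 42 were lower and 0 higher, beside 5.55% and 1.46% of all probe sets. Without Control_8 and Null_61, 15 genes were lower and 1, Cyp2b13, was higher. The genes called lower were Cyp2b9, 5 Cyp2c genes, 4 Cyp2d genes, Cyp2e1, Cyp2f2, Cyp2j5 and Cyp2u1.

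**Figure D1:**
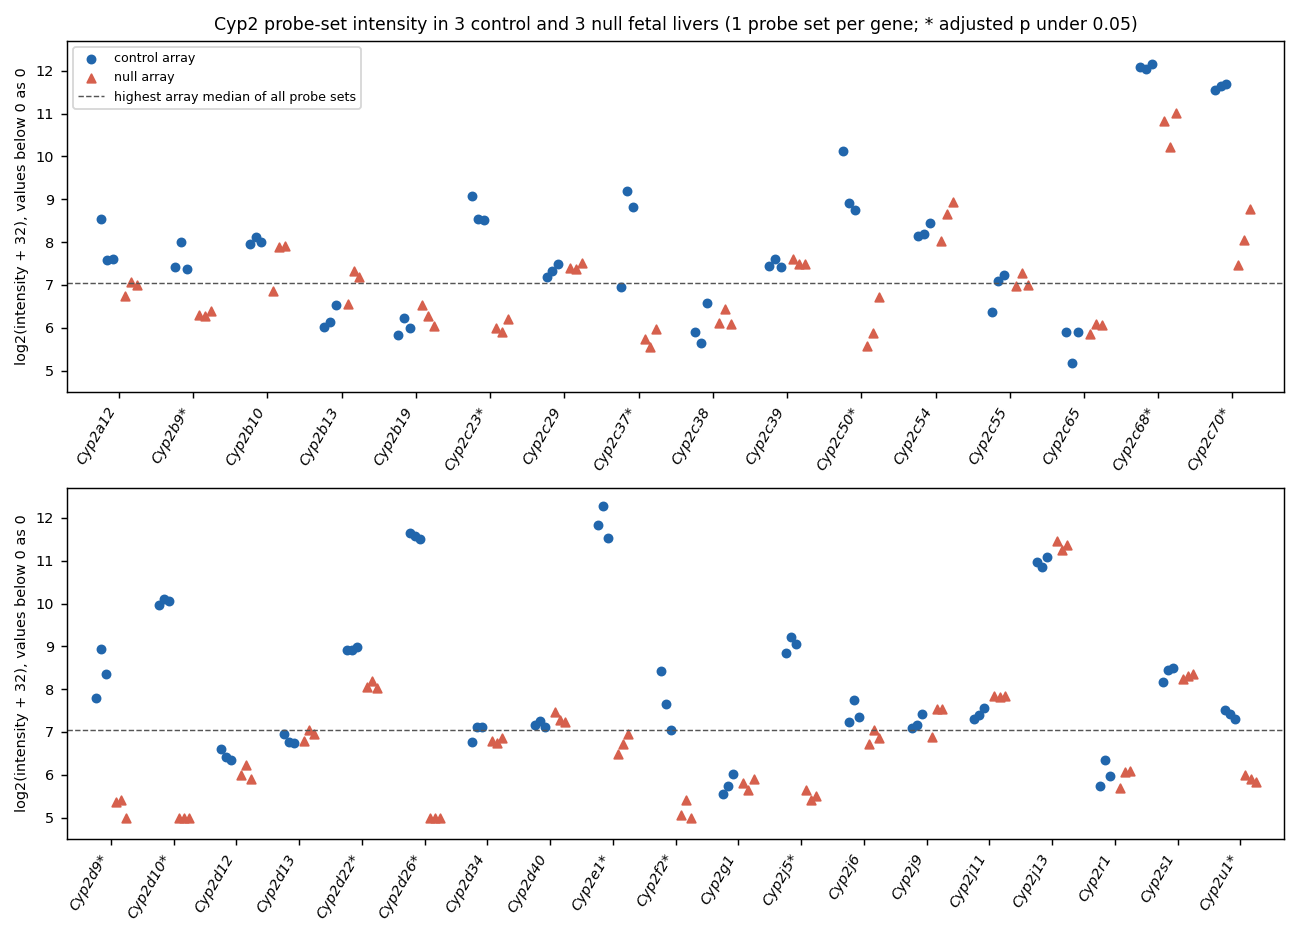
Intensity of the standing probe set of each of the 35 Cyp2 genes on a log2 scale after adding 32, with each of the 3 control arrays as a circle and each of the 3 null arrays as a triangle, in the order of their titles. The dashed line is the highest array median of 99.5, and an asterisk marks the 14 genes called lower, in 11 of which the null mean lies below that line.

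In 11 of the 14 genes called lower the null mean fell to or below 99.5, so that the nulls read no brighter than a typical probe set of the array. In the other 3, Cyp2c68, Cyp2c70 and Cyp2d22, clear signal was left. The livers are bulk samples, in which fewer hepatocytes and less RNA per hepatocyte cannot be told apart. Of 8 measured hepatocyte markers 6 were lower, and the summed intensity of the 8 was 85718 to 87195 in the controls and 52243 to 57249 in the nulls. The 2 not called were Alb, albumin, at 10532 ± 269.7 and 10651 ± 459.9, and Afp, alpha-fetoprotein, at 11969 ± 36.6 and 11463 ± 139.9 (SD, n = 3). In Afp all nulls lay below all controls. Both genes read close to the highest value of an array, which ran from 11302 to 12608, so that a change in them may not show in the signal. Of the markers of other cells, 3 of 8 macrophage genes were higher, with sums of 3941 to 4457 in the controls and 5241 to 7750 in the nulls. Lower were 3 of 6 megakaryocyte and mast cell genes (sums of 3652 to 4558 and 2616 to 2970) and 3 of 6 endothelial genes (1705 to 1939 and 1179 to 1387). Of 6 erythroid, 6 neutrophil, 6 stellate and mesenchymal, 5 biliary and 3 lymphoid markers measured, 0 were called. Among 7 markers of non-liver epithelia 1 was lower and 0 were higher. Over all genes 7.85% were lower and 1.56% higher. The part of these marker shifts in the Cyp2 values was not tested.

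Before the values, the stretches just upstream of the genes are shown, since members that fell together lie in clusters of duplicated genes. RefSeq promoter entries (build GRCm38.p6, 250 bases before to 50 after an annotated start) were matched by symbol for 27 of the 35 genes. No entry was matched for Cyp2c23, Cyp2c54, Cyp2d12, Cyp2d13, Cyp2d22, Cyp2d34, Cyp2g1 and Cyp2u1. Each was searched on both strands for CAAAGNNCA, a core of HNF4 sites in which N is any base, and for CAAAGTCCA, which is one form of that core. The core was found in 7 of the 11 genes called lower that have an entry and in 3 of the other 16, and it is present in 6.36% of all 32851 promoter entries. CAAAGTCCA was found in Cyp2c65, Cyp2c68 and Cyp2c70 and in 0.475% of all entries. The HNF1 core GTTAATNAT and the C/EBP palindrome TTGCGCAA, in 0.801% and 0.183% of all entries, were found in 0 of the 27 genes. A match is a run of letters and not a shown binding site.

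The 120 bases before the annotated start of the 10 genes with a core match, and of Cyp2e1 as a strongly lowered gene without one, are printed 5′ to 3′ in the direction of the gene, with the core match in capitals. The first 7 genes were called lower, and Cyp2d40, Cyp2c65 and Cyp2a12 were not.
Cyp2c37, chr19:39992304-39992423, plus strand: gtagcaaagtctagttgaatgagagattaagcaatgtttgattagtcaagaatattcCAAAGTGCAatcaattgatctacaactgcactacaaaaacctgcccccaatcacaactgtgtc
Cyp2c50, chr19:40089559-40089678, plus strand: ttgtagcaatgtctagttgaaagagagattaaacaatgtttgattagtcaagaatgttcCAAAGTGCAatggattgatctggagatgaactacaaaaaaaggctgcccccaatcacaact
Cyp2c68, chr19:39741102-39741221, minus strand: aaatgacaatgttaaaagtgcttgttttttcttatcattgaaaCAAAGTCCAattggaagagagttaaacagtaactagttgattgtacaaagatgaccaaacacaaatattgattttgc
Cyp2c70, chr19:40187287-40187406, minus strand: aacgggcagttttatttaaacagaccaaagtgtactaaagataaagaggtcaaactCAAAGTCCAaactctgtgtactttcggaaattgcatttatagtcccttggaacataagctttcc
Cyp2d9, chr15:82452257-82452376, plus strand: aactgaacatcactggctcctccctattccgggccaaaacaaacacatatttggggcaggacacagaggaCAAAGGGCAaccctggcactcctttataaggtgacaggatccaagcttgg
Cyp2d10, chr15:82407195-82407314, minus strand: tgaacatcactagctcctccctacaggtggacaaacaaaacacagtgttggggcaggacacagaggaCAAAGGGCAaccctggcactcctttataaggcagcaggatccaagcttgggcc
Cyp2d26, chr15:82794246-82794365, minus strand: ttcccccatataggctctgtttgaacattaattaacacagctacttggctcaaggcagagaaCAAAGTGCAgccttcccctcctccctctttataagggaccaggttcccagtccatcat
Cyp2d40, chr15:82764123-82764242, minus strand: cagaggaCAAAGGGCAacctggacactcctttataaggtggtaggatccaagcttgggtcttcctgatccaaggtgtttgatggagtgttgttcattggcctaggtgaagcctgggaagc
Cyp2c65, chr19:39060886-39061005, plus strand: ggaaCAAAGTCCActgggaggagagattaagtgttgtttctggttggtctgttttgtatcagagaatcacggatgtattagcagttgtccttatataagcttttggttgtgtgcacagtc
Cyp2a12, chr7:27028970-27029089, plus strand: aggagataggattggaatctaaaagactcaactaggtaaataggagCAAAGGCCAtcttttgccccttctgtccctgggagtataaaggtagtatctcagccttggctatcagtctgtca
Cyp2e1, chr7:140763699-140763818, plus strand: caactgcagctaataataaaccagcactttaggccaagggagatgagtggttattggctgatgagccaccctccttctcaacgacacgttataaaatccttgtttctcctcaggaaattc

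In all 7 lowered genes the match lay on the gene's own strand and began 50 to 77 bases before the start, at 50 in Cyp2d9, 53 in Cyp2d10, 58 in Cyp2d26, 61 in Cyp2c50, 63 in Cyp2c37, 64 in Cyp2c70 and 77 in Cyp2c68. Cyp2a12 had it at 74, Cyp2d40 at 113 and Cyp2c65 at 116. A match on the gene's strand between 40 and 80 bases before the start, a window chosen after these positions were seen, is present in 0.475% of all entries. The matches are not independent of each other, because neighbouring Cyp2 genes are copies. Cyp2d9, Cyp2d10 and Cyp2d40 carry the same letters CAAAGGGCA, each followed after 15 bases by TATAA, and their values are given next. A further pair, Cyp2b9 and Cyp2b13, shared all 120 letters and is printed because all null values lay below the control values in Cyp2b9 and above them in Cyp2b13.
Cyp2b9, chr7:26173289-26173408, plus strand: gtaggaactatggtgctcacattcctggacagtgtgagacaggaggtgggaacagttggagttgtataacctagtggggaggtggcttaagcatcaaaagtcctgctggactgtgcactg
Cyp2b13, chr7:26061375-26061494, plus strand: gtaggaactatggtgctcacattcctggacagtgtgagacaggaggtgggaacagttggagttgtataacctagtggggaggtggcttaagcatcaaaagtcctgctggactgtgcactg

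Of 8 measured Cyp2d genes 4 were called lower, and in Cyp2d26 and Cyp2d10 no null liver gave a value above 0. Cyp2d26 (1448683_at), a P450 of mouse liver, read 3159.8 in Control_8, 2999.8 in Control_1192 and 2888 in Control_1193, and -28.4, -37.5 and -28.5 in Null_61, Null_1191 and Null_1195. Every null lay below 0, so that no fold is given (adjusted p = 2.56e-08). Cyp2d10 (1418113_at) read 961, 1068 and 1039.7 in control livers against -23.6, -29.6 and -48.0 in null livers (adjusted p = 7.26e-08). Since values below 0 were set to 0, all null livers entered the test with one value for each gene, and these p values hold no spread between null livers. Cyp2d9 (1419349_a_at), a steroid 16-alpha-hydroxylase that is male-biased in adult liver, read 189, 455 and 294 in control livers against 9.48, 10.3 and -3.45 in null livers. Its groups lay far apart, with a log2 change of -3.10 (standard error 0.26, adjusted p = 0.000135).

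Cyp2d22 kept a large part of its signal. Its standing probe set (1419039_at) read 451, 451 and 477 in control livers against 234, 259 and 229 in null livers, a fall of 1.81-fold (log2 change -0.85, standard error 0.11, adjusted p = 0.00172). The second probe set of Cyp2d22 fell from 422 ± 69.2 to 197 ± 20.3 (SD, n = 3), which is 1.97-fold with 32 added. Null and control groups did not overlap in either probe set. The remaining Cyp2d genes, Cyp2d12, Cyp2d13, Cyp2d34 and Cyp2d40, were not called. Cyp2d40 read 112, 119.8 and 106 in control livers against 146, 124 and 119 in null livers, and the 95% confidence interval of its log2 change ran from -0.12 to 0.43. Cyp2d12, Cyp2d13 and Cyp2d34 had control means of 56.1, 81.3 and 96.8, below the highest array median. In Cyp2d12 all nulls lay below all controls (log2 change -0.41, adjusted p = 0.152), and in Cyp2d13 and Cyp2d34 the groups overlapped.

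Of 11 measured Cyp2c genes 5 were called lower, and the median log2 change of the 11 was 0.05. Cyp2c70 (1424273_at), which in mice makes the muricholic bile acids, read 2969, 3158 and 3289 in control livers against 145, 233 and 408 in null livers. It fell 11.5-fold, with a log2 change of -3.53 (standard error 0.28, adjusted p = 8.2e-05). Relative to their mean the nulls spread more than the controls, at 262 ± 134 against 3138 ± 161 (SD, n = 3). Cyp2c68 (1423244_at) read 4349, 4202 and 4547 in control livers against 1788, 1151 and 2041 in null livers. It fell 2.67-fold (log2 change -1.42, standard error 0.19, adjusted p = 0.00194), and no null reached a control.

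Cyp2c23, Cyp2c37 and Cyp2c50, which oxidise arachidonic acid, fell to the level of dim probe sets. Cyp2c23 (1424576_s_at), an epoxygenase, read 510.5, 339 and 334 in control livers against 31.5, 27.9 and 41.5 in null livers (log2 change -2.68, standard error 0.18, adjusted p = 2.65e-05). Cyp2c50 (1418653_at) read 1087, 452 and 401 in control livers against 15.8, 27.2 and 73.4 in null livers, with Control_8 far above the other controls (log2 change -3.21, standard error 0.39, adjusted p = 0.00119). Cyp2c37 (1419094_at) went the other way in Control_8, at 91.9 against 553 and 422, with 21.3 in Null_61, 15.05 in Null_1191 and 30.3 in Null_1195. The null mean was 22.2 ± 7.66 (SD, n = 3) and the log2 change -2.57 (standard error 0.49, adjusted p = 0.0143). The call of Cyp2c37 was lost without Control_1192, Control_1193 or Null_1191 (adjusted p = 0.0601, 0.0661 and 0.0678). In the 4 arrays other than Control_8 and Null_61 its log2 change was -3.25 (adjusted p = 1.7e-05).

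The other Cyp2c genes were not called, and in each of them the groups overlapped. Cyp2c29, a phenobarbital-inducible epoxygenase that is abundant in adult liver, read 113, 128 and 148 in control livers against 137, 135 and 149 in null livers. Cyp2c39, a retinoic acid hydroxylase, read 142, 163 and 138 and then 163, 149 and 149. The 95% confidence intervals of their log2 changes were -0.19 to 0.38 and -0.22 to 0.31. Neither holds a change in signal as large as that of any lowered Cyp2c gene. The control means of Cyp2c29 and Cyp2c39, 130 and 148, were not far above the highest array median. How much of their signal is background was not tested, so the intervals do not show that the transcripts were kept. Cyp2c54, the immediate neighbour of Cyp2c37 and Cyp2c50, read 248, 259 and 318 in control livers against 227, 368 and 455 in null livers. Its log2 change of 0.27 had an interval of -0.23 to 0.78 (adjusted p = 0.525). Cyp2c55 read 50.5, 104 and 118 and then 93.4, 122 and 95.6, while Cyp2c38 and Cyp2c65 stayed at means of 19.9 to 42.4 in both groups. These genes are close copies of each other, and how far a probe set takes up signal from a copy was not analysed here.

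**Figure D2:**
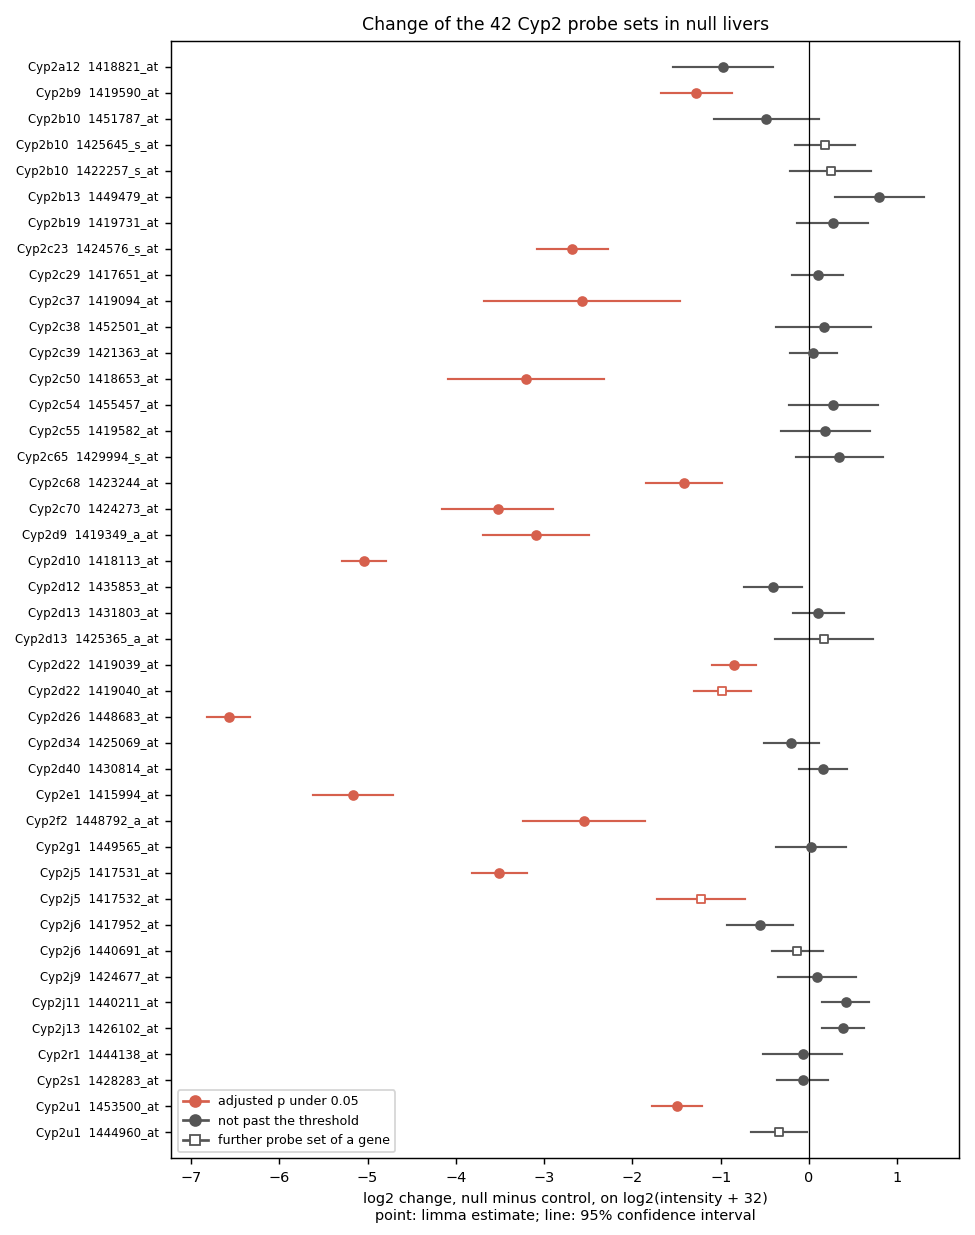
Log2 change of null minus control with its 95% confidence interval for all 42 Cyp2 probe sets, with red for an adjusted p under 0.05 and open squares for further probe sets of a gene. The 16 red intervals all lie below 0, from Cyp2d22 at -0.85 to Cyp2d26 at -6.57.

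Cyp2e1 (1415994_at), which oxidises ethanol, acetone and paracetamol, read 3629.9, 4913 and 2932 in control livers against 57.4, 74.1 and 91.7 in null livers. All nulls lay below the highest array median, so that no fold is given, and the log2 change was -5.16 (standard error 0.20, adjusted p = 1.13e-06). Its promoter stretch above held neither HNF4 letter run, which says only that these letters are not in that window. Cyp2f2 (1448792_a_at), which activates naphthalene and is typical of periportal hepatocytes and airway club cells, read 309.9, 169.9 and 99.8 in the controls. The nulls read 1.42, 10.4 and -0.635 (log2 change -2.55, standard error 0.31, adjusted p = 0.00112). The lowest control was still far above the highest null.

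Of 5 measured Cyp2j genes only Cyp2j5 was called. Cyp2j5 (1417531_at), an arachidonic acid epoxygenase of kidney and liver, read 427, 561 and 496 in control livers against 18.1, 10.8 and 13.2 in null livers (log2 change -3.51, standard error 0.14, adjusted p = 1.17e-06). Its second probe set went from 177 ± 54.4 to 56.4 ± 15.6 (SD, n = 3) with a log2 change of -1.22, also called. Cyp2j13 read 1983, 1831 and 2137 in control livers against 2773, 2406 and 2611 in null livers. All nulls lay above all controls, by 1.30-fold on average, and the adjusted p was 0.0646. Cyp2j11 read 126, 137 and 155 and then 195, 194 and 199, 1.33-fold higher with 32 added, at an adjusted p of 0.0762. With the run of title numbers as a term in the fit, Cyp2j13, Cyp2j11 and Cyp2b13 were called higher (adjusted p = 0.0327, 0.0393 and 0.00678). With quantile normalization, Cyp2j13 and Cyp2j11 were called higher too (adjusted p = 0.0189 and 0.0388).

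Cyp2j6 read 118, 182 and 131 in control livers against 74.2, 101 and 84.4 in null livers, with no overlap and an adjusted p of 0.0864 that became 0.0251 with the number run as a term. Its second probe set was dim, at 64.2 ± 7.40 and 55.7 ± 6.49 (SD, n = 3), and was not called. Cyp2j9 read 104, 112 and 138 and then 85.5, 154 and 153, with Null_61 below and the other nulls above all controls. Its 95% confidence interval ran from -0.35 to 0.54.

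Among the Cyp2a and Cyp2b genes, which in adult liver respond to the nuclear receptors for foreign compounds and differ between the sexes, 1 of 5 was called. Cyp2b9 (1419590_at), female-biased in adults, read 139, 226 and 134 in control livers against 47.1, 45.5 and 52.4 in null livers (log2 change -1.27, standard error 0.18, adjusted p = 0.00266). Cyp2b13, the neighbouring gene and likewise female-biased in adults, read 33.0, 38.4 and 60.2 and then 62.2, 129 and 113, so that all nulls lay above all controls. Its log2 change of 0.79 had an adjusted p of 0.0729, and without Null_61 it was 1.03 with an adjusted p of 0.0078. In the reference the 120 bases before the annotated starts of Cyp2b9 and Cyp2b13 hold the same letters, although 1 gene was called lower and the other was not. Cyp2b10, the standard target of the constitutive androstane receptor, read 216, 246 and 225 in control livers against 83.2, 204 and 207 in null livers. The log2 change was -0.48 (adjusted p = 0.335) and -0.13 without Null_61, and both further probe sets of Cyp2b10 had means under 40. Cyp2b19 was dim, at 33.2 ± 9.42 and 46.7 ± 13.6 (SD, n = 3).

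Cyp2a12, which hydroxylates steroids and bile acids, read 339, 159 and 162 in control livers against 74.2, 101 and 96.2 in null livers. The groups did not overlap, and the adjusted p of 0.0538 just missed the threshold at a log2 change of -0.97 (standard error 0.25). Control_8 was again the highest control. Cyp2a12 passed the threshold once title numbers entered the fit (adjusted p = 0.0162), with embryo sex as a term (0.00684), and in the 4 arrays without Control_8 and Null_61 (0.0344, at a log2 change of -0.56).

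Cyp2u1 (1453500_at), a fatty acid hydroxylase that is broadly expressed outside the liver, read 151, 139 and 125 in control livers against 31.5, 28.3 and 25.4 in null livers (log2 change -1.50, standard error 0.12, adjusted p = 0.000104). Its second probe set was dim, at 44.8 ± 3.85 and 28.7 ± 6.02 (SD, n = 3), and was not called. Cyp2s1, an epithelial P450 that the aryl hydrocarbon receptor induces, read 257, 317 and 326 and then 269, 286 and 294. Its groups overlapped fully, and the interval of its log2 change ran from -0.36 to 0.22. Cyp2r1, a vitamin D 25-hydroxylase, and Cyp2g1, an olfactory enzyme, had means under 40 in both groups, below the highest array median, and no loss was detectable there.

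**Figure D3:**
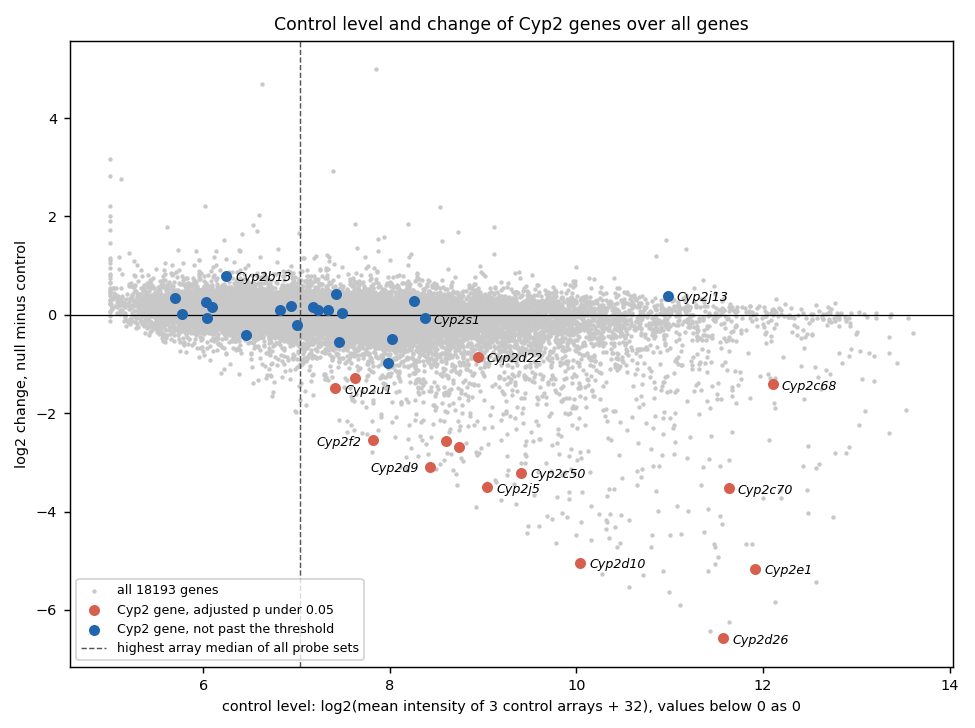
Control level against log2 change for all 18193 genes in grey and for the 35 Cyp2 genes in colour, with the highest array median of 99.5 as a dashed line. All 14 lowered Cyp2 genes lie to the right of the line, and Cyp2j13, right of the line as well, lies above 0 and was not called.

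Along the chromosomes, lowered genes stood beside genes that were not called, several of which were dim in the controls. In the order of the reference table, the Cyp2d genes of chromosome 15 begin with Cyp2d22, Cyp2d10 and Cyp2d9, all lower, go on with Cyp2d12, Cyp2d34, Cyp2d13 and Cyp2d40, none called, and end with Cyp2d26, which fell to background. Cyp2d11 lies between Cyp2d22 and Cyp2d10 and was not analysed here. On chromosome 19, Cyp2c55, Cyp2c65, Cyp2c29, Cyp2c39 and Cyp2c38 were not called, and the lowered Cyp2c68, Cyp2c37, Cyp2c50, Cyp2c70 and Cyp2c23 follow them, with the uncalled Cyp2c54 among these. On chromosome 4, Cyp2j5 was lower and the other 4 measured Cyp2j genes were not called. Cyp2c66, Cyp2c67, Cyp2c40 and Cyp2c69 on chromosome 19 and Cyp2j12 and Cyp2j8 on chromosome 4 had no singly named probe set. Control means of Cyp2d12, Cyp2d34, Cyp2d13, Cyp2c55, Cyp2c65 and Cyp2c38 lay below the highest array median, so that a fall may not show. Those of Cyp2d40, Cyp2c29 and Cyp2c39 were 113, 130 and 148, and those of Cyp2c54 and Cyp2j13 were 275 and 1984. In all, 5 of 11 measured genes were lower on chromosome 19, 4 of 8 on chromosome 15, 3 of 10 on chromosome 7, 1 of 5 on chromosome 4 and the single one on chromosome 3.

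**Figure D4:**
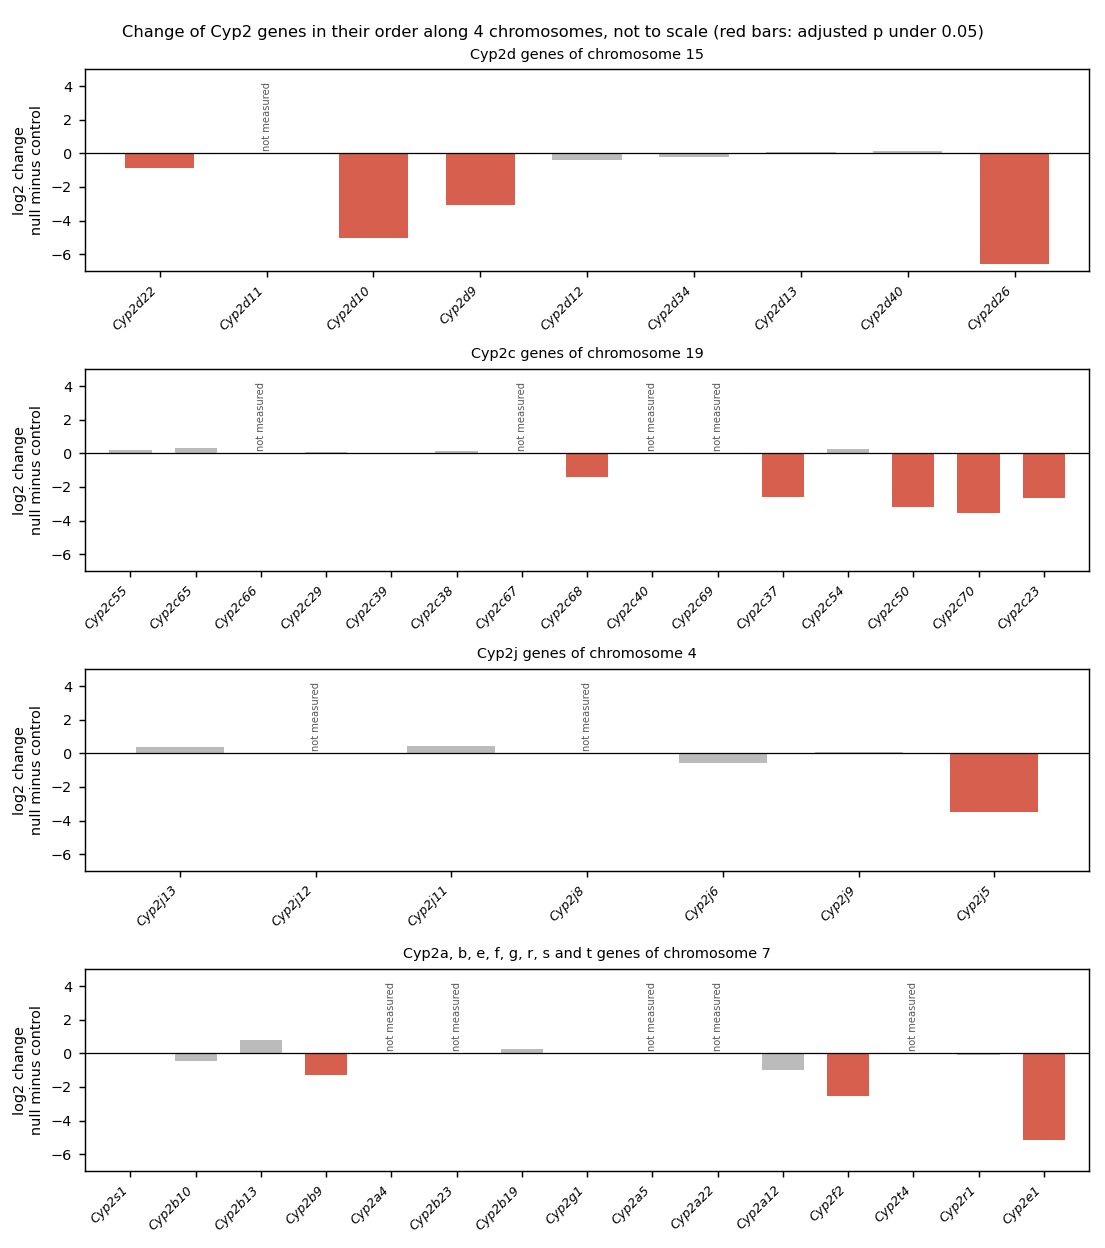
Log2 change of null minus control for the Cyp2 genes of chromosomes 15, 19, 4 and 7 in their order along the chromosome, not to scale, with red bars for an adjusted p under 0.05. Lowered genes such as Cyp2d26 at -6.57 stand beside uncalled genes such as Cyp2d40 at 0.16, which had a control mean of 113.

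The summed Cyp2 signal over 35 genes, with values below 0 as 0, was 22057 to 23856 in the controls and 6773 to 8105 in the nulls. Cyp2j13, which was not called lower, gave 2406 to 2773 of the sum in the nulls, so that it does not measure the signal left in the lowered genes.

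Genes that serve P450 enzymes fell in part. Of 6 measured redox partners and membrane anchors 3 were lower and 0 higher, beside 7.85% and 1.56% of all genes. Their median log2 change was -0.48. By an unadjusted p under 0.05 the counts were the same, beside 2760 lower and 1656 higher of all 18193 genes. Cyb5a, the cytochrome b5 that passes electrons to P450s, read 5576, 5214 and 5403 in control livers against 2285, 2719 and 2798 in null livers, a fall of 2.07-fold (adjusted p = 0.000297). Cyb5r3, the reductase of cytochrome b5, fell 1.72-fold from 1349.6 ± 182 to 767 ± 10.2 (SD, n = 3). Of its 3 other probe sets 2 were also called lower. Pgrmc1, a heme-binding membrane protein that associates with P450s, fell 2.58-fold from 1937 ± 82.6 to 736 ± 113 (SD, n = 3). Por, the P450 reductase, had no singly named probe set and was not analysed here.

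Of 31 measured regulators of Cyp2 genes 6 were lower and 1 higher, beside 7.85% and 1.56% of all genes. At an unadjusted p under 0.05 by limma the counts were 12 and 2, beside 2760 and 1656 of all 18193 genes. The median log2 change of the regulators was -0.23. Nr1i2, the pregnane X receptor, fell from 247 ± 67.0 to 48.4 ± 9.06, and Nr1h4, the bile acid receptor FXR, fell from 352 ± 67.5 to 107 ± 31.3 (SD, n = 3), 2.78-fold with 32 added. Nr0b2, the receptor SHP that FXR induces, fell from 208 ± 69.2 to 65.1 ± 10.3 and Cebpa, a factor of hepatocyte differentiation, 3.25-fold. Ahr, the aryl hydrocarbon receptor, and Nr3c1, the glucocorticoid receptor, fell 1.58-fold and 1.56-fold, but 0 of the 1 and 5 other probe sets of these genes were called lower. Foxa1, a pioneer factor, was the one called higher, from 85.4 ± 10.5 to 186 ± 56.5. It was lost when Control_8, Control_1192, Control_1193 or Null_1195 was left out. Nr1i3, the constitutive androstane receptor, read 86.4, 144 and 107 in control livers against 91.7, 91.8 and 92.0 in null livers and was not called, near the background of the arrays. Rxra, the partner of these receptors, read 575, 577 and 495 and then 400.2, 179 and 290 (adjusted p = 0.0533).

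Of 37 genes of families other than 2, 11 were lower and 0 higher, with a median log2 change of -0.18. By an unadjusted p under 0.05 their counts were 14 and 2, beside 2760 and 1656 of all 18193 genes. Of 11 measured genes that take up P450 products, namely epoxide hydrolases and conjugating enzymes, 7 were lower and 0 higher, with a median of -1.01. Over all genes 7.85% were lower and 1.56% higher. Whether the share of lowered genes differs between these lists and Cyp2 was not tested.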

How the data were processed

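Biotin-labelled total RNA of 6 fetal livers was read on Affymetrix arrays, per the labels' protocols. The deposited values are linear probe-set intensity values, some below 0. How probes were summarised and scaled, and with which software, is not stated in those labels. The array number limits the precision.

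The tests left out 64 Affymetrix controls of the 45101 probe sets. Array medians of log2(intensity + 32) differed by 0.0877, under a tolerance of 0.2, so the deposited scaling was kept. The groups entered limma 3.58.1, run in R 4.3.3 (lmFit, eBayes with an intensity trend, 6 arrays, no covariate, two-sided). With 3 arrays a group the smallest exact permutation p is 0.1, and that test was not used. All 42 members matched the reference table (GRCm38.p6) by Entrez number, and 0 symbols changed. Suffixes were _at in 35, _s_at in 4 and _a_at in 3, where _s_at probe sets may match several transcripts.

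Every Cyp2 gene is accounted for by subfamily. Genes whose brighter group mean lies above the highest array median are given array by array, and the others by mean or range. Of the partner and regulator lists, called members are named. Nr1i3, Rxra, Por, Alb and Afp were named after their values were seen. The members, lists and tests were chosen with earlier results of these data known. In simulated data for this comparison, 200 of 45037 probe sets were changed. The fit found 59% of those changed by 1 on the log2 scale and 92% of those changed by 2, beside 4 false calls. The 59% and 92% cover only probe sets above the median control level, so they cannot be carried over to dim probe sets. How often a change would be found in the dim Cyp2 genes that were not called was not tested.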

Additional observations from a re-analysis of the deposited data

How the results depend on the processing

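No paired analysis was possible because the titles of the groups share no replicate number. Alternatives were quantile normalization, centred array medians, array weights, only probe sets brighter than the median, pseudocounts of 1 and 100, a fit without intensity trend, the mean of a gene's probe sets, a change of at least 2-fold, the number run or embryo sex (read from Xist and Y-linked probe sets) as a term, the 4 arrays of the higher number run, and leaving out each array. The count of lowered Cyp2 genes was 11 to 16, and 13 to 14 with an array left out. The fewest, 11, came where dim probe sets were left out of the test. At a change of at least 2-fold 13 of the 14 lowered genes were left, since Cyp2d22 changed by less. In the other settings in which they were tested 13 of the 14 kept their call, and the exception was Cyp2c37.

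The count of Cyp2 genes higher in the nulls was 0 in the main setting. It was 2 with quantile normalization, array weights, the mean of a gene's probe sets or dim probe sets left out, 3 with the number run as a term and 1 in the 4 arrays. It was 0 to 1 with an array left out. Counts of probe sets were the same as these wherever probe sets were counted. The count of other P450 genes higher was 1 with quantile normalization, with the mean of probe sets and in the 4 arrays. Of the regulators, 2 were higher with array weights, 0 at a change of at least 2-fold, and 0 to 1 with an array left out. The cause was not tested.

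Log2 changes near 0 turned their sign in a few settings, all without a call. In the 4 arrays Cyp2c39 was at -0.0108 and Cyp2c55 at -0.0286, and Cyp2s1 was at 0.0372 with quantile normalization. With an array left out, Cyp2c55 ran from -0.082 (without Control_8) to 0.3507 and Cyp2j9 from -0.0187 (without Null_1191, and -0.0181 without Null_1195) to 0.3112. The size of falls to the background is set by the pseudocount: Cyp2d26 was at -11.56 with 1 and at -4.96 with 100.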

Other observations

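One probe set, 1422230_s_at, carries the symbols Cyp2a4 and Cyp2a5 and was left out of the members. It read 79.7, 72.2 and 40.7 in control livers against 28.6, 23.9 and 44.7 in null livers, with a log2 change of -0.57 and an adjusted p of 0.144 by limma.

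Control_8 stood apart from the other controls in single Cyp2 genes and not in one direction. It was the highest control in Cyp2a12 (339 against 159 and 162), Cyp2c23 (510.5 against 339 and 334), Cyp2c50 (1087 against 452 and 401) and Cyp2f2 (309.9 against 169.9 and 99.8). It was the lowest in Cyp2c37 (91.9 against 553 and 422) and Cyp2d9 (189 against 455 and 294). By Xist and Y-linked probe sets it is also the only control read as female, beside Null_1191 and Null_1195. The number run and embryo sex cannot be told apart among the 3 controls.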
